A study of Mus musculus with 180 samples.

Results

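The genes described here are the replication-dependent histone genes of the mouse histone clusters, taken as all genes of the single-cell feature list whose symbol begins with Hist1h, Hist2h, Hist3h or Hist4h. There were 67 of them among 31053 listed genes: 6 for linker histone H1, 18 for H2A, 18 for H2B, 12 for H3 and 13 for H4. Of these, 54 lie on chromosome 13, 10 on chromosome 3, 2 on chromosome 11 and 1 on chromosome 6. The RNA table of embryonic stem cells (ESCs) holds 47 of them among 12730 genes, the table of epiblast-like cells (EpiLCs, the formative state that ESCs enter on leaving naive pluripotency) holds 32 among 12735, and 31 stand in both. Members outside those tables were not analysed in the RNA comparisons.

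RNA-seq, ATAC-seq (a transposase assay of open chromatin) and ChIP-seq of the co-repressor TRIM28 were done on ESC lines of the inbred strains C57BL/6J (B6: lines B41, B44 and B51) and DBA/2J (D2: lines D29, D55 and DAC203). ESCs were kept in naive conditions, and the same lines were also taken to EpiLCs for RNA and ATAC. The first-generation hybrid of both strains (F1: lines F116, F117 and F124) entered as ESCs, and 33 BXD lines, whose inbred genomes are mosaics of B6 and D2, had 1 library each for RNA and ATAC in each state. Embryoid bodies (EBs, aggregates in which ESCs differentiate) of a mixture of B6 and D2 lines were read as 1 pooled single-cell library. No group carried an introduced mutation or drug treatment in the labels. Each replicate of a strain is a different line. The labels do not say whether these lines derive from separate embryos, and p-values measure the spread between them. In such bulk RNA, fewer cells of a kind and less RNA per cell cannot be told apart. RNA levels are a normalized signal per gene with library totals of 902000 to 1120000 in ESCs and 875000 to 1230000 in EpiLCs. Read depth of the RNA libraries cannot be recovered from it.

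Replication-dependent histone genes are transcribed mainly in S phase, when new DNA must be packed into nucleosomes made of H2A, H2B, H3 and H4 and bound by linker H1. Most of their messenger RNAs have no introns and, in cycling cells, end in a conserved stem-loop in place of a poly(A) tail. The stem-loop binding protein SLBP and the U7 small nuclear ribonucleoprotein direct that 3' end, and some members can also be made as polyadenylated RNA from a downstream signal, above all in differentiated or resting cells. The RNA libraries were made with an mRNA capture kit per the labels, so levels here are those of histone RNA that such capture retains and not of all histone RNA.

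The stem-loop is the sequence that sets these genes apart, and 10 of them are printed in 5' to 3' direction for the genes that the results turn on, with the 16-base stem-loop element in capitals and 5 flanking bases on each side in lower case. They were read from the genome assembly GRCm38.p6 after each stop codon: chr13:23555782-23555807 (plus strand), chr13:23571838-23571863 (plus), chr13:23581945-23581970 (plus), chr13:23561898-23561923 (minus), chr13:22040961-22040986 (minus), chr13:23739507-23739532 (plus), chr13:23684642-23684667 (plus), chr11:58955167-58955192 (plus), chr13:21810893-21810918 (plus) and chr13:21833024-21833049 (minus), in the order below.
Hist1h1d: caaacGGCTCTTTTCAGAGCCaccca
Hist1h2bg: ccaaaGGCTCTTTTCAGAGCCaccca
Hist1h4d: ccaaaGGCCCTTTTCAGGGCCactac
Hist1h3e: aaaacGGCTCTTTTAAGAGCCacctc
Hist1h4i: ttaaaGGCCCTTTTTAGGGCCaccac
Hist1h1c: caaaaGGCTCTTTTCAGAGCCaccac
Hist1h2bc: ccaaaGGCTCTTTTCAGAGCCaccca
Hist3h2a: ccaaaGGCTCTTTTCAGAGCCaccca
Hist1h2ao: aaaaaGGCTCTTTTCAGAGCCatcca
Hist1h2ap: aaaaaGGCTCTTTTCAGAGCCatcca

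The element was searched on the coding strand within 150 bases after the stop codon, as GG, 2 free bases, CTT, 1 free base, T, 1 free base, AG, 2 free bases and CC. It stood behind 65 of 67 histone cluster genes (97.0%) and behind 6 of 21668 other protein-coding genes (0.0277%). These 6 included the histone genes H2afx and H2bfm, of which H2afx is counted below as a replacement histone. Hist2h2be and Hist1h2an had no match in that window. The spelling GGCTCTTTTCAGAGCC occurred in 41 members, among them 15 H2A, 13 H2B, 8 H3 and 5 H1 genes. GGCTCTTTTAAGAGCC occurred in 9 members, and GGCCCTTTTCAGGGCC in 8, all of them H4. Hist1h4i shared its spelling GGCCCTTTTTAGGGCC with Hist2h4 only.

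The annotated transcript end lay at or before the end of the stem-loop element in 16 of the 65 genes, 1 to 100 bases past it in 22 and over 100 bases past it in 27. These are distances on the genome and count any intron as well. Hist1h2bc (chr13:23684199-23692908, plus strand, H2B), annotated with 2 exons, ended 8246 bases past its stem-loop. For Hist1h1d (chr13:23553262-23560686, plus, H1) the distance was 4884 bases. The distances were 1643 bases for Hist3h2a (chr11:58954685-58956830, plus, H2A), 840 for Hist1h1c (chr13:23738808-23740367, plus, H1) and 330 for Hist1h4i (chr13:22040636-22041362, minus, H4). For the H2A genes Hist1h2ao (chr13:21810465-21810944, plus) and Hist1h2ap (chr13:21833026-21833507, minus) they were 31 and 3 bases.

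Of the 67 members, 62 matched a RefSeq promoter entry of 300 bases on GRCm38.p6. On either strand, CCAAT stood in 53 of these 62 (85.5%) against 37.8% of 27025 promoters, in all 6 H1, 18 H2A, 16 H2B and 10 H3 entries and in 3 of 12 of H4. The octamer ATTTGCAT, the known element of H2B promoters, stood in 7 of 16 H2B and 7 of 18 H2A entries and in none of the other classes, against 1.74% of all promoters. TATAAA stood in 35 of 62 (56.5%) against 14.1%. A match is a description of letters and was not tested as a binding site. The 150 bases before the RefSeq start are printed for 3 genes whose RNA is described in detail and whose promoters differ in these motifs, with every match of the 3 motifs on either strand in capitals: chr13:23554882-23555031 (plus), chr13:23571250-23571399 (plus) and chr13:22041363-22041512 (minus).
Hist1h1d: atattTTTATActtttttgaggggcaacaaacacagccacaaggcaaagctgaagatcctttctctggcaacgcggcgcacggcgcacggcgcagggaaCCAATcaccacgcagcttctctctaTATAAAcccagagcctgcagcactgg
Hist1h2bg: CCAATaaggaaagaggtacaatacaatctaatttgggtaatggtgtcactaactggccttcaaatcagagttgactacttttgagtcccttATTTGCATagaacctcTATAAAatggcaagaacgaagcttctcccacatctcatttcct
Hist1h4i: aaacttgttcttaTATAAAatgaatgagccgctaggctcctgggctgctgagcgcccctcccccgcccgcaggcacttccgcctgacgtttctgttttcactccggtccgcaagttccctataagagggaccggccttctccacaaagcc

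Coding sequences within a class are nearly the same, which limits how reads can be assigned. Coding sequences were identical for Hist1h2ao and Hist1h2ap, for Hist1h2bq and Hist1h2br, for Hist1h4m and Hist1h4n, and for Hist2h2aa1 and Hist2h2aa2, and Hist2h3b differed from Hist2h3c2 by 1 base. H1 genes were less alike, from 62.4% (Hist1h1t) to 84.5% (Hist1h1d) identical to the nearest member. The sources used here do not say how reads that fit several genes were assigned or whether strand was used, so levels of single core histone genes are uncertain. Hist1h2be overlaps Hist1h1e on the same strand over 496 bases, Hist3h2a lies within the annotated span of Trim17, and most H2A genes overlap a short predicted gene on the other strand.

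In ESCs, histone cluster RNA was mostly lower in D2 than in B6. Of the 47 genes, 23 were lower and 1 was higher in D2 (limma, Benjamini-Hochberg adjusted p under 0.05), against 20.3% lower and 17.3% higher among all 12694 genes tested. Their median difference (D2 minus B6, on the log2(signal + 1) scale) was -0.43, against -0.04 over all genes. In 29 of 47 members all 3 D2 libraries lay below all 3 B6 libraries (27.9% of all genes did), and in 1 all lay above (23.5%). All 5 classes took part: 4 of 5 H1, 5 of 11 H2A, 6 of 9 H2B, 4 of 11 H3 and 4 of 11 H4 genes were called lower. The count of lower calls rested on single libraries: it was 8 without B44, 9 without B51 and 15 without D29, and 2 members were called higher without D55. B44 held the highest B6 value in 35 of 47 members and B41 the lowest in 31, against 38.2% and 30.9% of the other genes. The calls of 8 genes held under all 12 alternatives tried: Hist1h1d, Hist2h2aa2, Hist2h2ac, Hist1h2bj, Hist1h2bb, Hist1h4m, Hist2h3c2 and Hist1h2bc.

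Among the linker histones, which bind the DNA between nucleosomes, Hist1h1d had signals of 12.99, 15.34 and 14.06 in B6 lines B41, B44 and B51 and of 7.28, 7.70 and 6.95 in D2 lines D29, D55 and DAC203. The D2 libraries were all near the same level, well below the lowest B6 library, and the difference was -0.86 ± 0.115 (SE, n = 3 and 3, limma adjusted p = 0.000504). Hist1h1b fell by 0.67 (adjusted p = 0.0218), Hist1h1a by 0.50 (adjusted p = 0.0140) and Hist1h1e by 0.36 (adjusted p = 0.0298), each with no overlap of the strains. Hist1h1c differed from these: its signals were 22.21, 23.41 and 22.77 in B6 and 18.24, 23.01 and 19.02 in D2. Line D55 lay within the B6 range, and the difference of -0.18 did not pass the test (adjusted p = 0.216).

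H2A and H2B form the dimers at the faces of the nucleosome. Hist2h2aa2 had signals of 11.50, 12.74 and 14.72 in B6 and 7.03, 6.59 and 7.58 in D2, which gave -0.79 ± 0.127 (adjusted p = 0.00140). Hist2h2ac fell by 0.87, Hist1h2ad by 0.85 and Hist1h2ac by 0.69, all from B6 means under 4. Among H2B genes, Hist1h2bj had 6.93, 8.32 and 8.32 in B6 and 3.27, 3.72 and 4.72 in D2, which gave -0.86 ± 0.153 (adjusted p = 0.00232). Hist1h2bb fell by 0.74, Hist1h2bf by 0.70, Hist1h2bp by 0.48, Hist1h2bg by 0.41 and Hist1h2be by 0.36. In none of these did the strains overlap.

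Hist1h2bc, another H2B gene, was the member that went the other way. Its ESC signals were 7.90, 9.37 and 9.45 in B6 and 12.71, 12.14 and 14.28 in D2. Every D2 library lay above every B6 library, and the difference was 0.50 ± 0.121 (adjusted p = 0.0105). The H2A gene Hist3h2a had 3.59, 3.13 and 4.18 in B6 and 5.03, 4.05 and 8.51 in D2, and its difference of 0.52 did not pass (adjusted p = 0.0997), with D55 inside the B6 range.

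H3 and H4 form the core tetramer of the nucleosome. Of the H3 genes, Hist2h3c2 fell by 0.75, Hist2h3b by 0.67, Hist1h3g by 0.65 and Hist1h3f by 0.51. Of the H4 genes, Hist1h4m had 10.85, 12.61 and 12.34 in B6 and 5.68, 6.46 and 8.15 in D2, which gave -0.75 ± 0.144 (adjusted p = 0.00361) with no overlap. Hist1h4j fell by 0.68, Hist1h4h by 0.53 and Hist1h4b by 0.51. Hist1h4i showed overlapping strains in ESCs, with 3.18, 3.68 and 2.74 in B6 and 1.76, 2.52 and 3.85 in D2 (difference -0.21, adjusted p = 0.468).

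The 2 H2A genes with identical coding sequence had high signals and no called strain difference in ESCs. Hist1h2ap had 96.08, 94.22 and 93.54 in B6 and 91.71, 69.07 and 93.65 in D2 (difference -0.17, adjusted p = 0.276). Hist1h2ao had 10.42, 18.37 and 10.99 in B6 and 13.79, 10.80 and 18.26 in D2 (difference 0.11, adjusted p = 0.730). The strains overlapped in both genes. The remaining members with high mean ESC signals were Hist1h3e (9.95), Hist1h4d (9.84) and Hist1h3c (9.22), whose differences of -0.45, -0.29 and -0.15 did not pass. Gene lengths behind the signal are not given, so levels of different genes were not ranked.

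**Figure D1:**
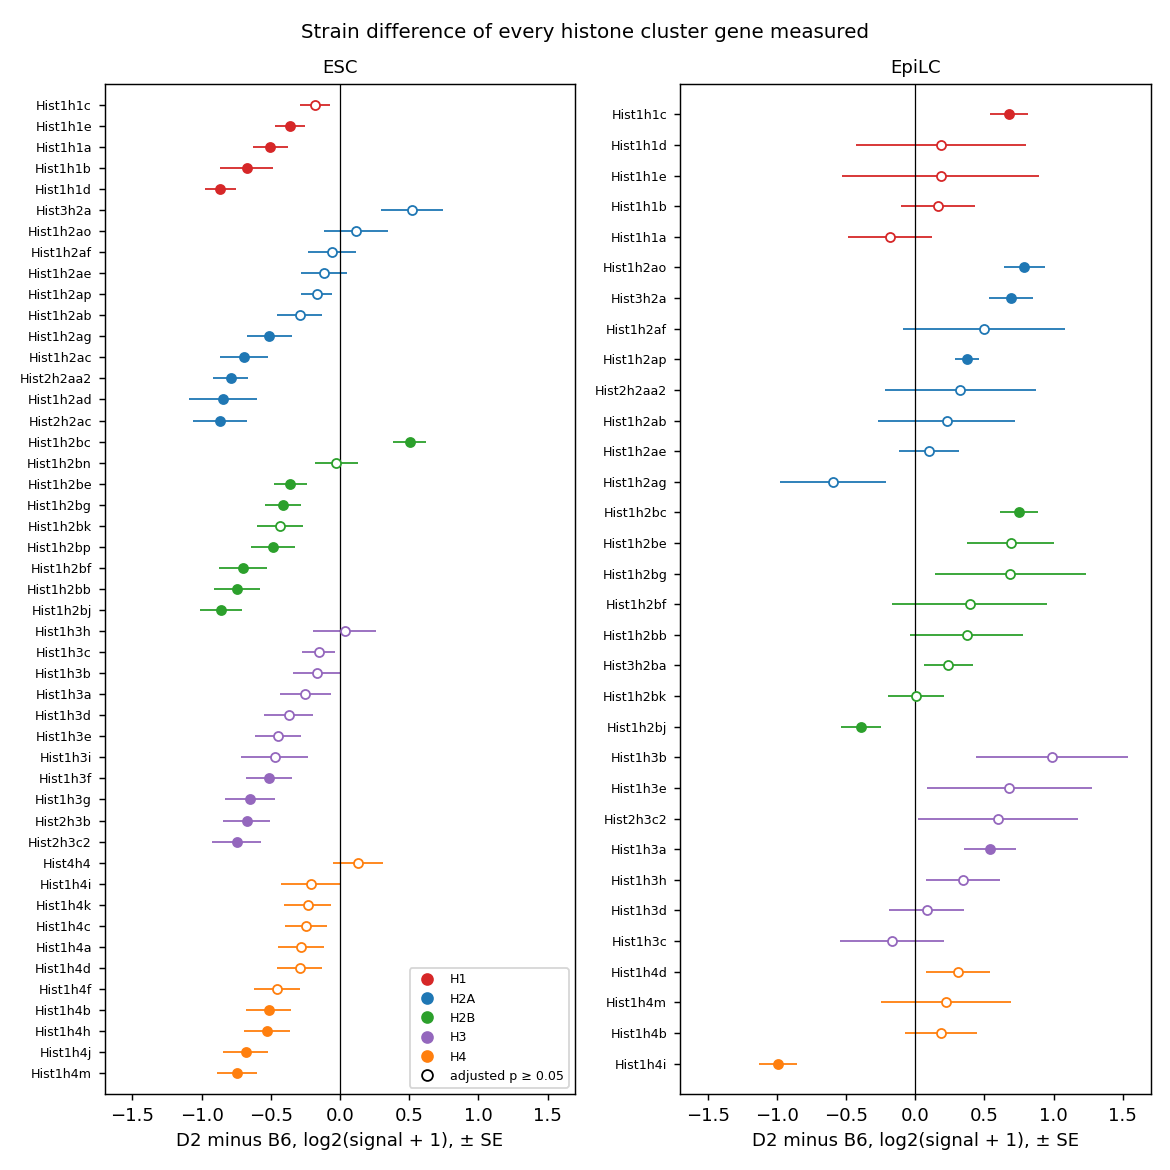
Difference of D2 from B6 in RNA for every histone cluster gene measured, in ESCs (left) and EpiLCs (right), as log2(signal + 1) with bars of ± 1 SE from 3 lines per strain; colours are histone classes and filled points have an adjusted p under 0.05. Most ESC points lie left of 0 with Hist1h2bc as the filled point to the right, whereas the EpiLC points spread around 0 with wide bars and 8 filled points.

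In EpiLCs the pattern differed. Of 32 members, 6 were higher in D2 and 2 were lower (limma, adjusted p under 0.05), against 28.5% higher and 29% lower of 12692 genes. The median difference of the members was 0.32, against 0.00 over all genes, and it was -0.05 without B51 and 0.65 without B41. In 5 members all D2 libraries lay above all B6 libraries (31.6% of all genes) and in 2 below (32.1%). The counts moved with single libraries: 15 members were called higher without B41, 4 lower without B51, and 1 lower without B44, B41, D55 or DAC203. The calls of Hist1h4i, Hist1h2bc, Hist1h1c, Hist1h2ao, Hist3h2a and Hist1h2ap held under all 12 alternatives, and those of Hist1h3a and Hist1h2bj under 7.

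The wide error bars came with a common order of the lines. B41 held the highest B6 value in 27 of 32 members and B51 the lowest in 26, whereas B41 was highest in 23.8% and B51 lowest in 25.7% of the other genes. D29 held the highest D2 value in 27 members and DAC203 the lowest in 27, against 41.5% and 35.4% of the other genes. Hist1h1e, for example, had 8.35, 3.04 and 0.957 in B41, B44 and B51 and 5.72, 4.56 and 1.91 in D29, D55 and DAC203, and Hist1h1d had 6.59, 2.89 and 0.837 and then 4.799, 3.737 and 1.926. The strains overlapped widely in both, with differences near 0.19 that did not pass (adjusted p = 0.845 and 0.815). Hist1h1b (difference 0.17) and Hist1h1a (-0.18) did not pass either. The median SD between the lines of a strain was 0.61 over the members in B6 EpiLCs against 0.12 over all genes, and 0.34 against 0.09 in D2. In ESCs it was 0.18 against 0.10 in B6 and 0.21 against 0.16 in D2.

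Of the 8 members called in EpiLCs, 7 showed no overlap between the strains. Hist1h1c had 3.72, 3.34 and 2.67 in B6 lines B41, B44 and B51 and 6.49, 5.98 and 4.90 in D2 lines D29, D55 and DAC203. All D2 libraries lay above all B6 libraries, and the difference was 0.68 ± 0.137 (adjusted p = 0.00121). Hist1h2bc had 5.35, 3.75 and 3.60 in B6 and 8.12, 7.95 and 7.09 in D2, which gave 0.75 ± 0.137 (adjusted p = 0.000606), so this H2B gene was higher in D2 in both states. Hist3h2a had 3.30, 2.23 and 2.51 in B6 and 6.08, 4.92 and 3.91 in D2, which gave 0.69 ± 0.158 (adjusted p = 0.00279) without overlap.

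Hist1h2ao and Hist1h2ap were both higher in D2 EpiLCs. Hist1h2ao had 90.23, 134.1 and 113.4 in B6 and 208.9, 163.5 and 209.8 in D2, which gave 0.79 ± 0.147 (adjusted p = 0.00146). Hist1h2ap had 152.1, 191.3 and 169.8 in B6 and 215.4, 229.4 and 219.4 in D2, which gave 0.38 ± 0.088 (adjusted p = 0.00317). Neither overlapped between the strains. The H3 gene Hist1h3a was higher by 0.54 (adjusted p = 0.0260), with D55 at 1.87 inside the B6 range of 0.931 to 2.12. The H2B gene Hist1h2bj was lower by 0.39 (adjusted p = 0.0384) without overlap. Among other members with high EpiLC means, Hist1h3c (difference -0.17), Hist1h2bg (0.69) and Hist1h2bf (0.39) did not pass.

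Hist1h4i, an H4 gene, showed the largest absolute difference among the called EpiLC members. It had 5.83, 7.49 and 7.50 in B6 and 3.54, 2.88 and 2.57 in D2, which gave -0.99 ± 0.136 (adjusted p = 7.135e-05). All 3 B6 libraries lay above all 3 D2 libraries.

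The difference of the strain effect between the states was tested directly in the 31 members of both tables. It was called higher in EpiLCs for 4 members and lower for 1, against 20.0% and 16% of 11745 genes, with a median of 0.60 over members (1.02 without B41) and 0.05 over all genes. Hist1h1c gave 0.86 ± 0.181 (limma interaction, adjusted p = 0.00186), Hist1h2ap 0.54 ± 0.151 (0.0107), Hist1h2be 1.05 ± 0.344 (0.0289), Hist1h3a 0.79 ± 0.282 (0.0385) and Hist1h4i -0.78 ± 0.260 (0.0289). Thus Hist1h1c, Hist1h2ap, Hist1h2be and Hist1h3a had negative differences in ESCs (-0.18, -0.17, -0.36 and -0.25) and positive ones in EpiLCs (0.68, 0.38, 0.69 and 0.54), of which only the ESC value of Hist1h2be and the EpiLC values of the other 3 passed their own tests. The difference between states for Hist1h2bc was 0.25 and did not pass (adjusted p = 0.329). The count of higher calls was 13 without B41, 6 without DAC203 and 2 without any one of B44, B51, D29 or D55, and the lower call was lost without B44, B51, D55 or DAC203. The same lines gave the libraries of both states, and the main fit took these libraries as independent. A block by line was among the 8 alternatives tried, and the call of Hist1h1c held under all of them.

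F1 ESCs were set against the mean of both parents, which are the same B6 and D2 libraries as above. No member was called higher and 2 were called lower (limma, adjusted p under 0.05), against 1.97% and 1.32% of 12700 genes. At an unadjusted p under 0.05 there were 1 higher and 13 lower. The share of all genes at that threshold is not given, and 1.97% and 1.32% are no background for these counts. Without DAC203, 1 member was called higher. The median over members was -0.17, against 0.02 over all genes. Hist1h2ao had 3.02, 2.49 and 2.80 in F116, F117 and F124, against 10.44 to 18.41 in B6 and 10.83 to 18.30 in D2. All F1 libraries lay far below all parental libraries, and the difference was -1.94 ± 0.188 (adjusted p = 0.000170), a call that held under all 13 alternatives. The H3 gene Hist2h3b had 1.73, 2.65 and 1.56 in the F1, 4.49, 6.63 and 5.85 in B6 and 2.58, 3.47 and 3.42 in D2, which gave -0.83 ± 0.155 (adjusted p = 0.0161). F117 lay just within the D2 range, and the count of lower calls was 1 without F116 or F124 and 3 without DAC203. In 2 members, Hist1h2ao and Hist1h2be, all F1 libraries lay below all 6 parental libraries (1.91% of all genes), and in none above them (2.77%).

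For Hist1h2ao, its identical partner Hist1h2ap bears on the F1 value. The sum of both genes was 97.8 to 105.1 in the F1, 104.8 to 112.8 in B6 and 80.1 to 112.2 in D2. Hist1h2ao made up 2.37% to 3.09% of that sum in the F1, 9.79% to 16.3% in B6 and 13.1% to 16.3% in D2 ESCs, and 1.49% to 18.2% (median 10.2%) across BXD ESC lines. In EpiLCs the share was 37.2% to 41.2% in B6, 41.6% to 49.2% in D2 and 39.8% to 59.9% in BXD lines. The sum of the pair thus overlapped between the F1 and D2, while the split between both genes did not, and whether the split reflects read assignment was not tested.

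The level of the cluster as a whole was followed as the sum over members without this pair. In ESCs it was 304.7, 339.9 and 376.2 in the B6 lines and 236.7, 246.8 and 266.2 in the D2 lines, with no overlap. Across the BXD lines it ran from 59.0 in BXD98 over a median of 273.8 to 423.0 in BXD64. The lowest line after BXD98 was BXD161 with 120.1, followed by BXD84 with 150.2. In the table that holds the F1, its 3 lines had 228.7, 248.7 and 277.0, below the B6 range of 305.4 to 377.1 and overlapping the D2 range of 237.3 to 266.7 there. BXD98 held the lowest value of 40 of 47 members, and BXD64 the highest value of 22. BXD98 also had the lowest total RNA signal of the ESC libraries (902000). The same counts over other genes are not given for BXD lines, so these are not read as particular to the members. In EpiLCs the sum was 48.0 in B51, 79.1 in B44 and 141.5 in B41, 75.3 to 135.4 in the D2 lines, and 68.5 (BXD90) to 190.5 (BXD49) with a median of 100.9 in the BXD lines. Values of the states come from tables normalized separately and were not compared. A line's ESC sum and EpiLC sum had a Spearman correlation of -0.43 over 33 lines (-0.45 without BXD98), given as a description.

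**Figure D2:**
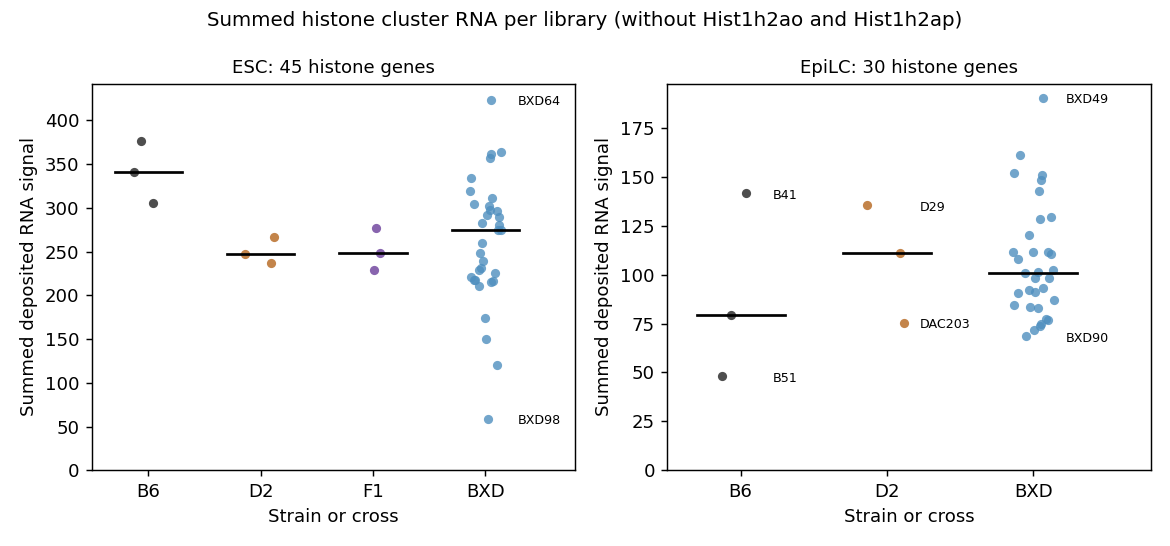
Summed RNA signal of the histone cluster genes without Hist1h2ao and Hist1h2ap in each library, for ESCs (left, 45 genes, F1 from its own table) and EpiLCs (right, 30 genes); points are libraries and horizontal lines are group medians. In ESCs the 3 B6 lines lie above the 3 D2 lines and BXD lines run from 59.0 to 423.0, and in EpiLCs B41 and B51 span 141.5 to 48.0.

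Other summed lists were set beside that sum. BXD98 and BXD64, the lowest and highest lines, had summed signals of 32 S phase genes of 7796 and 7825, inside the BXD range of 6140 to 9022. Over the 33 ESC lines, the sum had a Spearman correlation of 0.12 with the S phase genes and -0.08 with 20 G2 and mitosis genes. It was -0.17 with 22 histone chaperones and 0.01 with 11 replacement histones, most of which are made throughout the cell cycle. It was 0.38 with 7 cyclin-dependent kinase inhibitors, -0.39 with 7 formative markers and 0.36 with 9 other RNAs that lack a poly(A) tail (0.30 without BXD98), most of whose signal is Malat1. That list summed to 303.8 in BXD98, 265.0 in BXD161, 366.6 in BXD84 and 338.6 in BXD86, against a highest BXD value of 1877, and to 888.9 in BXD64. These 4 lines were the lowest of the 33 in both sums. Between the strains the sum of the same list ran the other way to the members, with 1205 to 1418 in B6 and 1839 to 2301 in D2 ESCs. Of its 9 RNAs, 2 were called higher in D2 ESCs and 0 lower, with a median difference of 0.17. In EpiLCs the correlations of the sum were 0.15 with S phase genes, 0.31 with G2 and mitosis genes and 0.10 with the RNAs without a tail. The part of cell cycle or of RNA selection in the spread or in the strain difference was not tested.

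Line to line, most members moved together. Over the 33 BXD ESC lines the median pairwise Spearman correlation of 1081 member pairs was 0.67 (0.64 without BXD98), against -0.02 for members with all other genes. In EpiLCs it was 0.52 over 496 pairs (0.53 without BXD98), against -0.01. These correlations are descriptions, since all members share their libraries, and nearly identical genes may also share reads. The median SD of log2(signal + 1) over the BXD ESC lines was 0.49 for members, 0.31 for all genes and 0.41 for 3473 other genes of like mean level. In EpiLCs it was 0.40 for members, 0.39 for all genes and 0.45 for 2004 genes of like level.

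Of the 47 members in ESCs, 37 had a median correlation with the other members of at least 0.6 and 4 (Hist1h2ag, Hist1h2bj, Hist1h2af and Hist1h3g) of 0.4 to 0.6. The remaining 6 lay under 0.2: Hist1h1c (0.18), Hist1h2ap (0.12), Hist3h2a (0.08), Hist1h2ao (0.07), Hist1h4i (0.00) and Hist1h2bc (-0.11). In EpiLCs Hist1h1c, Hist1h2ap, Hist1h2bc and Hist1h4i were again under 0.2, at 0.17, 0.19, 0.05 and -0.12. Of these 6, all but Hist1h4i share the 16 stem-loop bases printed for Hist1h1d and Hist1h2bg, which belong to the block that moved together. As a description, the genomic distance from the stem-loop to the annotated transcript end was set against this median correlation. The Spearman coefficient was 0.12 over ESC members (n = 47). It was -0.07 over EpiLC members (n = 32). The use of downstream poly(A) signals was not measured, and what sets the 6 genes apart was not tested.

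**Figure D3:**
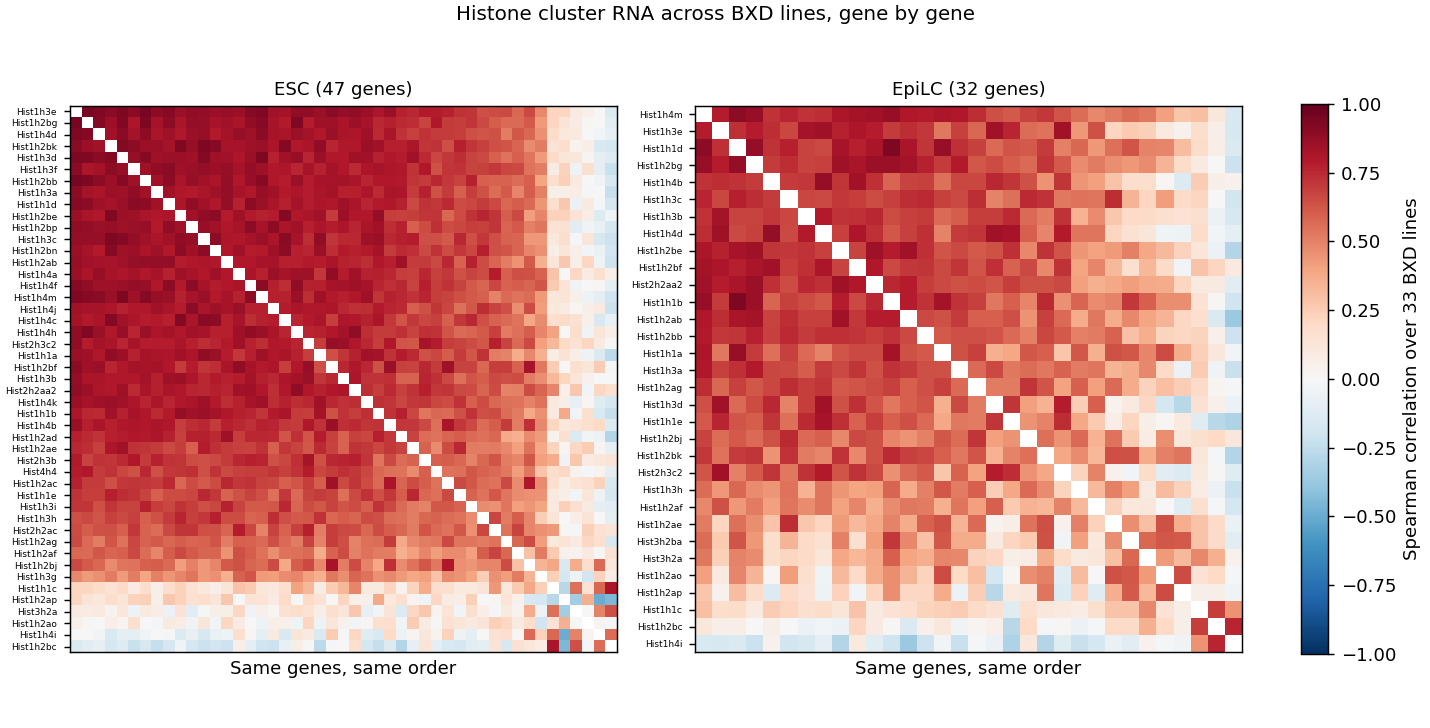
Spearman correlation of RNA signal between every pair of histone cluster genes over 33 BXD lines, for 47 genes in ESCs (left) and 32 in EpiLCs (right), ordered by median correlation; red is positive and blue negative. A block of 37 ESC genes with median correlations of at least 0.6 stands against 6 genes under 0.2 at the lower right, among which Hist1h1c and Hist1h2bc are red with each other.

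The genes outside the block partly moved with each other. Chosen after their values were seen, Hist1h1c and Hist1h2bc had a correlation of 0.81 in ESCs and 0.69 in EpiLCs, Hist1h2bc and Hist1h4i of 0.56 and 0.76, and Hist1h2bc and Hist3h2a of 0.65 and 0.36. In ESCs fibroblast feeder markers moved with 2 of these genes: the sum of 17 markers had a correlation of 0.77 with Hist1h2bc and 0.68 with Hist1h1c, of 0.29 with Hist1h4i and 0.26 with Hist3h2a, and of -0.01 with the summed cluster. BXD90, with the highest marker sum (7117, against a BXD median of 1543), had the highest Hist1h2bc (28.89) and Hist1h1c (49.09). BXD48, with the lowest Hist1h2bc (7.30), had a marker sum of 634.8, near the lowest of 617.2. Other lists also moved with Hist1h1c and Hist1h2bc in ESCs, with correlations of -0.69 and -0.62 for G2 and mitosis genes, -0.68 and -0.61 for histone mRNA processing genes, -0.51 and -0.45 for S phase genes, and 0.50 and 0.60 for primitive endoderm markers. In EpiLCs the correlations with the feeder markers were -0.31 for Hist1h2bc and -0.29 for Hist1h1c. Between the strains in ESCs the marker sums overlapped (1325 to 1663 in B6, 1378 to 1986 in D2), and 3 of 17 markers were higher and 1 lower in D2. The part of feeder cells, cell cycle or endoderm in the spread of Hist1h2bc and Hist1h1c was not tested.

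The BXD lines were also set against the range of the parental libraries. Hist1h1d ran from 0.931 to 10.69 in BXD ESCs with a median of 6.57, so that all 33 lines lay below the lowest B6 library at 12.99. Hist1h2ap ran from 90.35 to 247.8 with a median of 131.0, and its highest value was in BXD98, the line with the lowest values of most other members. The median of the BXD lines lay below all 6 parental libraries in 4 members and above all in 1, against 16.6% and 18.8% of all genes. In EpiLCs it lay above all parental libraries in 2 members and below in none, against 21.3% and 25.3%.

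Whether a line's level in one state recurred in the other was tested over the 33 BXD lines. Of 31 members, 1 was called with a positive correlation (adjusted p under 0.05 over all genes, permutation), against 9.33% of 11752 genes, and none with a negative one (0.298%), with 2 positive and 3 negative at an unadjusted p under 0.05. The median correlation was -0.20 over the members and 0.11 over all genes. When the 2 lines farthest from the median in ESCs were left out, 2 members were called. The called member was Hist1h4i (adjusted p = 0.00460).

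Over the BXD EpiLC lines, Hist1h4i had the largest SD of log2(signal + 1) among the members, at 0.82, followed by Hist1h2bc at 0.57. In BXD ESCs Hist1h4i ran from 1.35 over a median of 2.89 to 6.48, and in EpiLCs from 1.74 over a median of 3.20 to 14.42. Cut at their largest gap on the log2 scale, the EpiLC values of the lines gave 2 sets, 21 lines at 1.74 to 4.11 and 12 lines at 6.30 to 14.42. Such a cut leaves 2 sets with no line between for any gene, and whether the lines form separate groups was not tested. Other members were not cut in this way. The 3 D2 lines lay within the lower set and the B6 lines B44 and B51 within the upper set. The B6 line B41, at 5.83, lay in the gap. Hist1h4i was the member called above for a relation of its states over all 33 lines. As that call spans both sets, no single coefficient is given. The sets were divided by the EpiLC value itself, which narrows its range in each. Correlations within the sets therefore cannot decide whether the relation holds there.

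**Figure D4:**
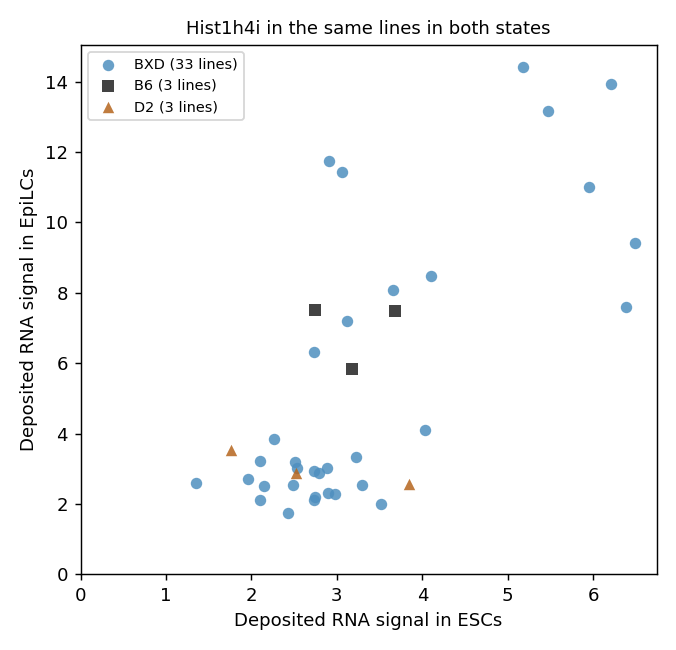
RNA signal of Hist1h4i in the same lines as ESCs (horizontal axis) and as EpiLCs (vertical axis), 1 point per line for 33 BXD, 3 B6 and 3 D2 lines. A cut at the largest gap of the BXD lines in EpiLCs leaves a lower set of 21 lines up to 4.11 and an upper set of 12 lines from 6.30. The D2 lines lie at the level of the lower set.

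Open chromatin at histone start sites was read from ATAC regions that overlap 1 kb either side of a member's start. In ESCs 46 regions held the starts of all 67 members, 29 of them shared by more than 1 member. Of these 46, 17 were more open in D2 and none less (limma on log2(signal + 0.1), adjusted p under 0.05), against 22.2% and 24.7% of 112226 regions. At an unadjusted p under 0.05 there were 25 and 0, and edgeR on recovered reads called 23 and 0. Their median difference was 0.18, against 0.15 in the other regions of chromosome 13 from 21 to 24 Mb and -0.00 over all regions. The count of higher calls was 38 without DAC203 and 10 without D55. Shares of all regions are not given for the unadjusted, edgeR and leave-one-out counts, so 22.2% and 24.7% are no background for them. Among regions with a mean signal of at least 10, 14 of 41 start-site regions were higher and 0 lower, beside 7441 higher and 4237 lower of all 23623 such regions, with medians of 0.18 and 0.08. The region at Hist1h2ad and Hist1h3d (chr13:23575308-23575875) had a mean signal of 5.51 ± 0.319 (SD, n = 3) in B6 and 7.72 ± 0.912 in D2, which differ by 0.47 (limma adjusted p = 0.00162). Further examples were Hist1h2ab with Hist1h3b (0.37), Hist1h2bm (0.36), Hist4h4 on chromosome 6 (0.36) and Hist1h2ac with Hist1h2bc (0.35). ESC RNA of Hist1h2ad and Hist1h2ac was lower in D2 while their promoter regions were more open, and that of Hist1h2bc was higher.

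In EpiLCs the difference ran the other way. The 35 start-site regions, 22 of them shared, held 1 more open and 20 less open in D2, against 25.6% and 32.6% of 100415 regions, with a median of -0.12 against -0.05 over all regions. Among regions with a mean signal of at least 10, 22 of 34 were lower and 1 higher, beside 16622 lower and 3234 higher of all 27334, and the median of all these regions (-0.19) lay below that of the start-site regions (-0.12). Rescaling by median ratios gave 2 and 12, edgeR on recovered reads 2 and 10, and the lower count was 13 without B44, B51 or DAC203. The single higher call was lost without B41, D29 or DAC203, and 2 were called without B51. The broad region over Hist3h2a (chr11:58953061-58957981) had 63.4 ± 1.18 in B6 and 45.4 ± 1.49 in D2, which differ by -0.48 (limma adjusted p = 6.14e-13), although its RNA was higher in D2 EpiLCs. The regions of Hist3h2ba (-0.37), of Hist1h2ao with Hist1h2bq and Hist1h4m (-0.23), of Hist1h4i with Hist1h2ag and Hist1h2bj (-0.19) and of Hist1h1c (-0.19) were also lower. Of these genes, RNA of Hist1h4i and Hist1h2bj was lower in D2, and RNA of Hist1h2ao and Hist1h1c higher.

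Across the 33 BXD lines, the promoter ATAC signal of each member was set against its RNA in the same state. In ESCs 0 of 47 members had a called positive correlation (permutation, adjusted p under 0.05) against 18.7% of 11873 genes, and 1 had a negative one against 0.716%, with 2 and 3 at an unadjusted p under 0.05. The median correlation was -0.10 over members and 0.19 over all genes. The negative one was Hist1h3d, with r = -0.45 (permutation p = 0.00919) and rho = -0.47 (p = 0.00652, adjusted p over all genes 0.0388), and r = -0.56 without the 2 farthest lines. In EpiLCs 0 of 32 were called positive against 15.2% of 11996 genes and 0 negative against 1.12%, with 5 and 0 at an unadjusted p under 0.05, and the medians were 0.22 and 0.18. Since many regions serve pairs of genes read from both strands, a region's signal cannot be assigned to 1 of them.

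TRIM28, a co-repressor brought to DNA by zinc finger proteins, was measured by ChIP in ESCs. In these data 39 regions held the starts of 60 members, with a median difference of 0.30 against 0.05 over all regions. Of these, 13 were higher in D2 and none lower (limma, adjusted p under 0.05), against 19.7% and 18.4% of 94211 regions. Counts were 19 and 0 at an unadjusted p under 0.05 and 12 and 0 by edgeR on recovered reads. Shares of all regions by these rules are not given. The region at Hist1h2af and Hist1h3g had 9.45 ± 1.71 in B6 and 14.5 ± 0.674 in D2, which differ by 0.63 (limma adjusted p = 0.000306). Others were Hist1h2ah with Hist1h2bk (0.60), Hist4h4 (0.59), Hist1h2ad with Hist1h2bf (0.59), Hist1h2ac with Hist1h2bc (0.51) and Hist1h1c (0.48). The D55 library was deeper (17100000 reads in regions) than the other 5 (5630000 to 6870000), and 13 regions were called higher without it too. Among regions with a mean signal of at least 10, 11 of 21 were higher and 0 lower, beside 5916 higher and 4153 lower of 20834. At Hist4h4 and at Hist1h2ac with Hist1h2bc, both TRIM28 and ESC ATAC signal were higher in D2.

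Around the genes, the chromosome 13 window from 21 to 24 Mb held 206 ESC ATAC regions, of which 69 were higher and 21 lower in D2 (22.2% and 24.7% of all ESC regions), or 114 higher without DAC203. It held 173 EpiLC ATAC regions with 37 higher and 65 lower (25.6% and 32.6% of all), or 41 and 46 by edgeR on recovered reads. Of its 243 TRIM28 regions 46 were higher and 47 lower (19.7% and 18.4% of all). The 5 largest ATAC differences in ESCs and the 3 largest in EpiLCs lay in a stretch 14.56 to 38.70 kb from the start of the H4 gene Hist1h4h, in which no annotated gene overlaps the regions. There, the ESC ATAC region chr13:23505645-23507905 had 17.3 ± 1.10 in B6 and 0.302 ± 0.085 in D2 (-5.46), and chr13:23513242-23515086 had 11.98 ± 1.43 and 0.060 ± 0.066 (-6.32). In EpiLCs chr13:23504852-23507969 had 36.9 ± 1.77 and 0.102 ± 0.071 (-7.57). The third largest TRIM28 difference lay in the same stretch, at chr13:23505606-23508038, with 13.1 ± 0.380 and 0.443 ± 0.050 (-4.61). Each of these differences had an adjusted p of 2.072e-12 or less, and no D2 library reached any B6 library. Whether the D2 genome lacks or differs in sequence at these regions was not tested, as no D2 genome was used here.

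The D2 signal near 0 recurred in part of the BXD lines. At the ESC region chr13:23505645-23507905, 20 of 33 lines lay below 10% of the B6 mean and the other 13 higher, and the same 20 lines lay below 10% at the overlapping EpiLC region. The 2 largest TRIM28 differences of the window lay 114.4 and 79.2 kb from the start of Hist1h2bj, at chr13:22156711-22158527 (16.3 in B6, 0.567 in D2) and chr13:22121715-22123145 (5.72 and 0.129). Among the 5 largest absolute differences of each assay, the difference in favour of D2 was at the EpiLC ATAC region chr13:23168185-23170273. It had 0.581 in B6 and 9.70 in D2 (3.98, limma adjusted p = 0.00136). There the 33 BXD lines ran from 0.405 over a median of 1.66 to 4.45, all below the D2 mean.

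**Figure D5:**
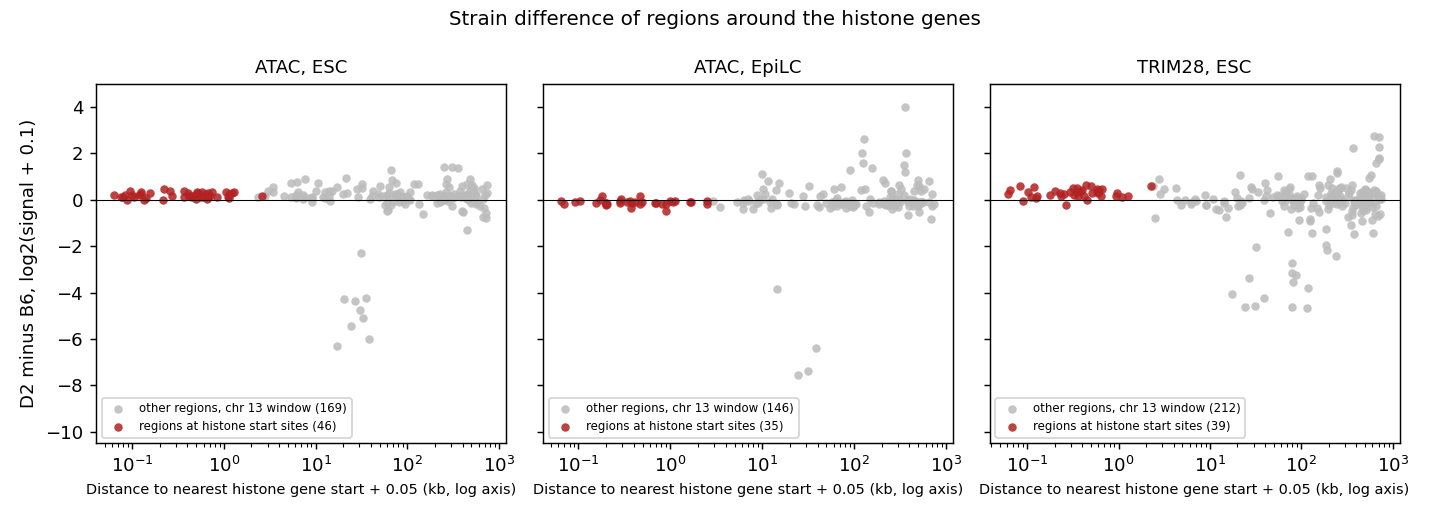
Difference of D2 from B6 on the log2(signal + 0.1) scale for regions at histone start sites (red) and other regions of the chromosome 13 window (grey), against the distance in kb to the nearest histone gene start (log axis, 0.05 kb added), for ESC ATAC, EpiLC ATAC and ESC TRIM28. Start-site regions stay within 0.63 of 0, whereas regions farther away reach -6.32, -7.57 and -4.66.

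Genes that make, carry or replace the histones were read from lists chosen with earlier results known, and their counts stand beside 17.3% higher and 20.3% lower of all genes in ESCs and 28.5% and 29% in EpiLCs. Of 28 genes of histone mRNA synthesis and 3' end processing, 2 were higher and 9 lower in D2 ESCs (median -0.18, against -0.04 over all genes), and 3 higher and 13 lower in EpiLCs (median -0.15, against 0.00). Slbp, which binds the stem-loop, had a difference of -0.17 in ESCs that did not pass (adjusted p = 0.167) and fell by 0.38 in EpiLCs, from 170.5 in B6 to 131.1 in D2 (adjusted p = 0.000623). Npat, the coactivator of histone gene transcription, and Casp8ap2, a partner at histone locus bodies, did not pass in ESCs (-0.19 and -0.25) and fell by 0.32 and 0.49 in EpiLCs. Zcchc6, which uridylates histone RNA for decay, fell by 0.50 in ESCs, and Ccne2, a cyclin of S phase entry, by 0.98 in EpiLCs.

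Of 32 S phase genes, 2 were higher and 9 lower in D2 ESCs (median -0.09), and 4 higher and 16 lower in EpiLCs (median -0.18). Rrm2, a subunit of ribonucleotide reductase, fell by 0.66 and 0.61, and Tipin, of the replication fork, by 0.87 and 0.74. Of 20 G2 and mitosis genes, 1 was higher and 5 lower in ESCs, and 9 were higher and 1 lower in EpiLCs. The S phase sum was 7215 to 7624 in B6 and 6452 to 6931 in D2 ESCs, without overlap, so the lower histone cluster RNA of D2 ESCs stood beside lower summed S phase RNA. Sums were also lower without overlap for G2 and mitosis genes (4450 to 4718 in B6, 3991 to 4130 in D2 ESCs), chaperones (9380 to 9913, 7793 to 8282) and processing genes (2445 to 2612, 2297 to 2391). The total RNA signal over all genes was itself lower in D2 ESCs (949979 to 969371) than in B6 ESCs (983914 to 1019491), without overlap. No sum of members or of a list was adjusted for it. In EpiLCs the S phase sum was 8151 to 8303 in B6 and 7150 to 7543 in D2, where the members were not lower as a group. The part of these lists in the strain difference was not tested.

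Of 22 histone chaperones, 1 was higher and 7 lower in ESCs and 3 higher and 11 lower in EpiLCs. Nap1l1, an H2A-H2B chaperone, fell by 0.80 in ESCs, and Hat1, which acetylates new H4, by 0.37 and 0.53. Of 11 replacement histones, 3 were higher and 2 lower in ESCs and 3 higher and 4 lower in EpiLCs. H2afy (macroH2A1) fell in both states, by 1.34 in EpiLCs, H1f0, the linker histone of slowly dividing cells, rose by 0.90 in ESCs, H2afx rose by 0.49 and 1.21, and Cenpa, the centromeric H3, fell by 0.71 in ESCs. Of the neighbours of the chromosome 13 clusters that are no histones, 7 of 19 were higher and 1 lower in ESCs, with Dcdc2a highest in D2 (2.55), so they did not share the members' direction.

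Core and naive pluripotency markers summed to 4614 to 4858 in B6 and 4731 to 4909 in D2 ESCs, which overlap. In EpiLCs they summed to 840.7 to 889.0 in B6 and 1053 to 1180 in D2, without overlap. Of 7 formative markers, 5 were higher in D2 ESCs, among them Dnmt3b (1.26), with sums of 194.9 to 244.7 in B6 and 342.7 to 417.6 in D2. In EpiLCs 7 of 9 pluripotency markers measured and 5 of 7 primitive endoderm markers were higher in D2, with Cubn at 0.832 ± 0.230 (SD, n = 3) in B6 and 30.7 ± 19.8 in D2. The part of these in the histone differences was not tested.

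In the EB pool, 20134 barcodes held 723201396 UMI counts (median 35110 per barcode), of which 310700 came from the 67 members, or 429.6 CPM (UMI counts scaled to the library total). It was 1 library, so no test was made, and intervals cover counting error only. All deposited barcodes were used, and doublets were not removed. One member had no UMI and 3 had 3 or fewer. Hist1h1b had 67928 UMIs, or 93.9 CPM (95% Poisson interval 93.2 to 94.6), and ranked 1677th of 31053 genes. Next were Hist1h1e (64.7 CPM), Hist1h2ap (44.7), Hist1h1c (34.8), Hist1h2bc (20.6), Hist1h2ae (19.9), Hist1h4i (18.1), Hist1h4d (16.8) and Hist3h2a (14.99). Such libraries are read from poly(A) 3' ends, so these values too are of histone RNA that is primed there. Of the 6 genes outside the ESC block, Hist1h2ao had 132 UMIs, whereas Hist1h2ap, Hist1h1c, Hist1h2bc, Hist1h4i and Hist3h2a were among the 9 members with the most UMIs. With barcodes of at least 1000 UMIs only, the members made up 429.3 CPM.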

How the data were processed

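RNA-seq, ATAC-seq and TRIM28 ChIP-seq values are the authors' deposited normalized signal per gene or region, 1 column per library. Tools named by the submitters' processing notes are HISAT2 2.0.5, Bowtie 1.0.0, Cell Ranger (3.1.0 per the file headers) and MACS 1.4.2, with build mm10. For the read counter, annotation and strand setting, nothing is stated in the sources used here. RNA libraries were made with the KAPA mRNA HyperPrep kit, per the labels. The EB matrix holds UMI counts as deposited by the authors, per the file headers.

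Parental ATAC libraries held 16300000 to 23100000 reads in ESC regions and 17200000 to 24300000 in EpiLC regions, recovered from the steps of the values, and BXD libraries had as few as 2240000. Intervals cover counting error only.

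Strains were compared with limma 3.58.1 (R 4.3.3, trend and robust) on log2(signal + 1) for genes with a mean of at least 0.5, and on log2(signal + 0.1) for regions, with Benjamini-Hochberg adjustment over all features and calls at 0.05. The edgeR 4.0.16 quasi-likelihood test on recovered reads was an alternative. BXD correlations used 100 shuffles pooled over genes, and 100000 permutations for named genes (Python 3.11.15, pandas 2.3.3, NumPy 2.4.6, SciPy 1.17.1). The fit was tested on simulated data. Same-numbered B6 and D2 libraries did not deviate together, so no number was used as a block. Named were called members (up to 25 per comparison by size), the 10 with the highest mean in each state, all measured H1 genes, up to 4 called genes per list, and the regions with the largest differences. Members and lists were chosen with earlier results of these data known. Alternatives were other pseudocounts, filters, scalings, a block and each library left out, and 1 more, the correlations without BXD98, was chosen after seeing the data. Promoter entries came from RefSeq, gene positions from GENCODE, and stem-loops from the GRCm38.p6 assembly.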

Additional observations from a re-analysis of the deposited data

Results flagged for a closer look

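The difference between D2 and B6 in RNA itself differed between EpiLCs and ESCs in 5 histone cluster genes, by a test of that difference over 31 genes in both tables (limma interaction, Benjamini-Hochberg adjusted over all genes). It was higher in EpiLCs for 4 genes and lower for 1, beside 20.0% and 16% of all genes tested. Hist1h1c, a linker histone, had a strain difference that was higher in EpiLCs by 0.86 on the log2 scale (adjusted p = 0.00186), and this call held under all 8 alternatives. Hist1h2ap (H2A) was higher by 0.54 (adjusted p = 0.0107), which held under 7 of 8. Hist1h2be (H2B) was higher by 1.05 (adjusted p = 0.0289) and Hist1h3a (H3) by 0.79 (adjusted p = 0.0385), and these held under 3 and 4 of 8. Hist1h4i (H4) had a value of -0.78 (adjusted p = 0.0289), which held under 3 of 8. The main fit did not pair the ESC and EpiLC libraries of a line, and a block by line was among the alternatives.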

How the results depend on the processing

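RNA depth is unknown, and reads of nearly identical genes may be shared. Repeats of the called genes kept their side of the threshold in 358 cases, lost it in 92 and turned in 0. For called start-site regions these were 473, 83 and 0, and for the 15 window regions with the largest differences 153, 0 and 0. A block on the replicate number gave lower calls of 15 in ESC RNA and 1 in EpiLC RNA, and no other count moved by over 1.5 times. Same-numbered RNA libraries had correlations of -0.391 to 0.00673, so the numbers did not pair them, and the block is given only here. For EpiLC ATAC start-site regions, edgeR gave 2 higher and 10 lower calls and median-ratio scaling 2 and 12. With regions of a mean of at least 10 only, window calls were 31 higher and 1 lower in ESC ATAC, 5 higher and 60 lower in EpiLC ATAC (3234 and 16622 of all 27334), and 28 higher and 14 lower in TRIM28. A pseudocount of 0.1 gave 0 lower calls between the states, and median SDs over BXD lines of 0.672 in ESCs and 0.514 in EpiLCs. Without the 2 farthest lines, 2 members were called between the states across BXD lines. The cause was not tested for any of these. Counts at an unadjusted p under 0.05, by edgeR or without single libraries stand without the share of all features under the same rule.

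Leaving out each library in turn gave 1 to 2 higher and 8 to 25 lower members in ESC RNA, 5 to 15 and 1 to 4 in EpiLC RNA, 0 to 1 and 1 to 3 for the F1, and 2 to 13 and 0 to 1 between the states. Start-site regions ranged over 10 to 38 higher in ESC ATAC, 0 to 2 higher and 13 to 26 lower in EpiLC ATAC, and 10 to 13 higher in TRIM28. Window regions ranged over 47 to 114 higher and 16 to 21 lower in ESC ATAC, 29 to 36 and 50 to 73 in EpiLC ATAC, and 36 to 48 for both in TRIM28.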
